A study of Mus musculus with 3 samples.

Results

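Ctnna3, Spag16, Magi2 and Agbl4 are 4 very long mouse genes, of 21757 protein-coding genes in GENCODE vM39, in which the crosslinks of the splicing regulator Tra2β lay almost entirely in introns. They were chosen by 2 measured values of these same libraries, a crosslink level above that of every other protein-coding gene but Akap12 and a low share of crosslinks in exons. Level and exon share are therefore given as descriptions, with no test. All 3 libraries came from testes of adult wild type mice, labelled as mixed cells, and form 1 group with no treatment and no altered allele. The testes were minced, which per the methods released the germ cells that were then irradiated. Endogenous Tra2β was pulled down with a polyclonal antibody after ultraviolet crosslinking (iCLIP), and the study describes the libraries as a biological triplicate. Since no control library (input, IgG or knockout) was analysed, each comparison sets regions of 1 gene against each other inside a library. The labels do not say how many animals a library stands for. The amount of a transcript, the number of cells that make it and how often Tra2β touched it cannot be told apart here.

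Tra2β is an SR-like protein of the nucleus that binds GAA-rich RNA through its RNA recognition motif and promotes the inclusion of exons. Introns are transcribed along with exons and are removed while the RNA is still being made, so a protein that meets RNA in the nucleus meets long introns before they are cut out. In iCLIP the end of each cDNA marks the nucleotide that was fixed to the protein, and unique cDNAs are called crosslinks below. The 4 genes have separate roles. Ctnna3 encodes αT-catenin, which links cadherins to actin, Spag16 encodes a protein of the central apparatus of the sperm tail axoneme, Magi2 encodes a membrane-associated guanylate kinase scaffold of cell junctions, and Agbl4 encodes CCP6, a cytosolic carboxypeptidase that trims glutamate chains from proteins such as tubulin.

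The libraries held 348033, 619571 and 488719 crosslinks in replicates 1, 2 and 3, of which 296946, 459310 and 428612 fell in annotated genes on the gene strand. Replicate 2 stood apart in several measures. Its crosslinks were less often at T, and a purine motif lay near them more often, as given for the 4 genes below, so each result is also stated by library. RNA of germ cells was present, with crosslinks in 10 of 10 listed marker genes (1033, 527 and 1779 crosslinks in all), and crosslinks were also seen in 3 of 4 Sertoli, 4 of 4 Leydig and 2 of 2 myoid cell markers. The 3 listed markers of brain and liver held 1, 4 and 2 crosslinks, all in 1 of them.

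All 4 genes lie on the plus strand of GRCm39. Ctnna3 (ENSMUSG00000060843.13) spans 1580 kb at chr10:63265877-64846348, with 18 exons in its canonical transcript. Magi2 (ENSMUSG00000040003.20) spans 1478 kb at chr5:19431741-20909790, with 21 exons. Agbl4 (ENSMUSG00000061298.17) spans 1260 kb at chr4:110254858-111514707, with 13 exons. Spag16 (ENSMUSG00000053153.16) is the shortest, 898 kb at chr1:69866036-70764291, with 17 exons. By span they stand 13th, 18th, 28th and 81st among protein-coding genes, in that order. Exons of any transcript make up between 0.797% and 0.977% of their countable bases, and the longest intron of each measures 398 kb in Ctnna3, 268 kb in Spag16, 451 kb in Magi2 and 375 kb in Agbl4.

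Ctnna3 held 903, 1961 and 882 crosslinks in replicates 1, 2 and 3. Spag16 held 666, 1734 and 748. Magi2 held 594, 1882 and 651, and Agbl4 held 667, 1690 and 685. Every one of them was highest in replicate 2, also after scaling to crosslinks in genes. On that scale (CPM, crosslinks per 1000000 crosslinks in genes) the level was 3123 ± 1108 for Ctnna3, 2588 ± 1058 for Spag16, 2539 ± 1371 for Magi2 and 2508 ± 1065 for Agbl4 (SD, n = 3), which ranked 2, 3, 4 and 5 among protein-coding genes. The differences between neighbours in this order are all smaller than the SDs. The gene just above them was Akap12 at 5255 CPM, with 99.0% of its crosslinks in exons, and the gene just below was Dnah8 at 2442 CPM, with 54.6%. Together the 4 genes held 0.953%, 1.58% and 0.692% of all crosslinks in genes.

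Per kb of gene the ranks were lower, and Ctnna3, Spag16, Magi2 and Agbl4 stood at 2856, 1825, 3265 and 2819. Against genes of like size they stood high on both scales. Of 234 protein-coding genes that span at least 500 kb, they were the first 4 by CPM, ahead of Macrod2 at 1597 CPM, and the median of the 234 was 78.1 CPM. Intron density was 1.94 ± 0.723 CPM per kb in Ctnna3, 2.80 ± 1.22 in Spag16, 1.71 ± 0.939 in Magi2 and 1.98 ± 0.854 in Agbl4 (SD, n = 3), against a median of 0.102 CPM per kb over those 234 genes. Among the long genes closest to the 4 in level, with under 5% of crosslinks in exons, were Macrod2, Immp2l (1555 CPM), Cfap299 (968 CPM) and Fgf14 (930 CPM), a likeness measured by CPM over 3 libraries among genes of at least 300 kb.

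Most crosslinks in these genes were intronic in every library. In Ctnna3, the exon share was 2.66% in replicate 1, with a 95% Clopper-Pearson interval from 1.71 to 3.93, then 1.38% (0.909 to 2.00) and 5.10% (3.75 to 6.77) in the other replicates. The exon share was 4.65%, 1.79% and 6.55% in Spag16, 2.19%, 0.850% and 2.61% in Magi2, and 2.10%, 1.12% and 2.19% in Agbl4. It was lowest in replicate 2 in each gene. These shares exceeded the share of exons in the length, so per kb the exons were denser than the introns. Exon density over intron density was 2.77, 1.41 and 5.45 in Ctnna3, 5.26, 1.96 and 7.55 in Spag16, 2.79, 1.07 and 3.34 in Magi2, and 2.58, 1.37 and 2.69 in Agbl4. In replicate 2 the 95% interval of this ratio ran from 0.930 to 2.06 in Ctnna3, from 1.33 to 2.79 in Spag16, from 0.609 to 1.74 in Magi2 and from 0.822 to 2.14 in Agbl4.

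The excess of replicate 2 was in the introns and not in the exons. Its intron density, in CPM per kb, was 1.71 times the mean of the other 2 libraries in Ctnna3, 1.97 times in Spag16, 2.36 times in Magi2 and 1.93 times in Agbl4. Its exon density was 0.633, 0.617, 0.835 and 1.01 times theirs in the same genes. Replicate 2 was therefore highest for introns in all 4 genes and lowest for exons in 3 of them, and with 3 libraries this is a description.

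**Figure D1:**
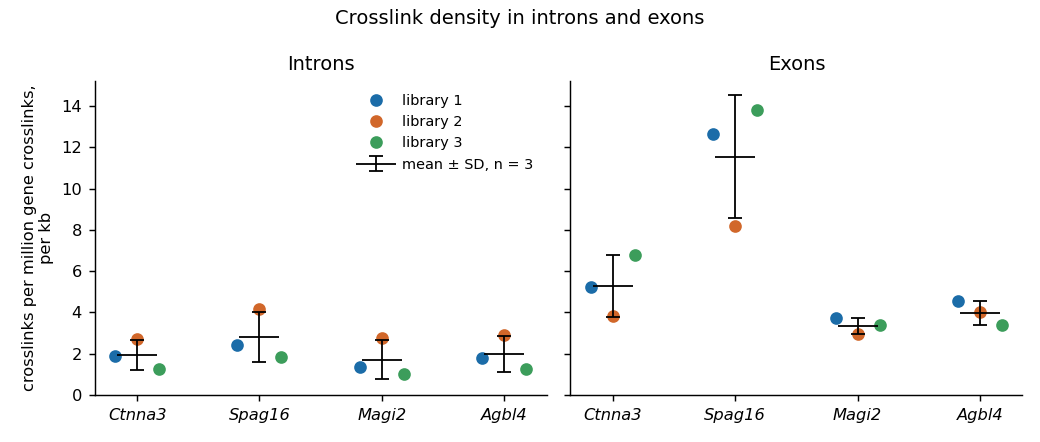
Crosslinks in CPM per kb (vertical axis), in introns (left) and exons (right) of the 4 genes, 1 point per library, with the mean and SD of 3 libraries. Library 2 is the highest point for introns in each gene and the lowest for exons in Ctnna3, Spag16 and Magi2, and Spag16 has the densest exons, at 11.5 ± 2.99.

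Exons that carried crosslinks differed between the genes. Spag16 had 111 exonic crosslinks, and its densest exons were short coding exons near the 5′ end. Exon 3 (96 nt) held 5, 3 and 7 crosslinks, exon 5 (138 nt) held 5, 6 and 8, and exon 10 (110 nt) held 4, 5 and 3. All 3 exons were hit in every library. Ctnna3 had 96 exonic crosslinks with no single leading exon, and exons 7, 8 and 9, which flank the longest intron and the short intron after it, held 10, 6 and 10 in 204, 81 and 153 nt. Magi2 was different, with 31 of its 46 exonic crosslinks (67.4%) in the 3779 nt first exon stretch, which includes a retained-intron transcript, and 22 of its 31 exon stretches empty. In Agbl4 only 16 of 48 exonic crosslinks were in canonical exons. The others were mostly in alternative exons, among them a 2175 nt exon with 3, 5 and 6 crosslinks and a 195 nt exon with 1, 7 and 1, both in intron 3. A further exon of 91 nt in intron 2, found in a transcript marked for nonsense-mediated decay, held 2 crosslinks in each library. It lies at chr4:110399422-110399512.

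Single nucleotides were seldom hit again. Of 3683 crosslinked nucleotides in Ctnna3, 17 were shared by 2 libraries and none by all 3. Spag16 had 1 nucleotide shared by all 3 libraries among 3075, in exon 3, and Magi2 had 1 among 3064, in intron 1, while Agbl4 had none among 3003. Between 97.3% and 99.7% of listed nucleotides rested on a single cDNA, so the sequences below are windows of 30 nt. The first set gives examples. For Spag16 it holds the window with the most crosslinks over the 3 libraries. For Agbl4 it holds a window that tied for the most, at 8, with another in intron 3. Capitals mark every GAA.
Spag16, chr1:70227076-70227105, intron 11: acattgttGAAgGAAattGAAGAAgatatc
Agbl4, chr4:110289050-110289079, intron 1: agtttaggtagtttgGAAgggatcaaggga
These windows held 13 and 8 crosslinks, and nearly all came from replicate 2. It gave 12 and 7 of them, replicate 1 gave 1 and 0, and replicate 3 gave 0 and 1. Over the 3 densest windows of each gene, 12 in all and all intronic, replicate 2 supplied 110 of 120 crosslinks (91.7%), GAA occurred in 11 and the mean purine share was 81.7%.

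The second set was chosen after these values were seen, as windows supported by every library. It holds the window with the highest count in its poorest library for Ctnna3, windows centred on the nucleotide hit in all 3 libraries for Spag16 and Magi2, and the densest window of the 91 nt Agbl4 exon. Capitals again mark GAA.
Ctnna3, chr10:63788191-63788220, intron 7: agctaaaaatGAAgagGAAggagGAAgGAA
Spag16, chr1:69883439-69883468, exon 3: taccagatgacaatttcagcattcctGAAg
Magi2, chr5:19445285-19445314, intron 1: ttgggacgtatttagGAAgtGAAgatatct
Agbl4, chr4:110399437-110399466, alternative exon in intron 2: gttgatgtctactgtttctgcatctcacaa
The counts in replicates 1, 2 and 3 were 2, 6 and 2 in the Ctnna3 window, 2, 3 and 3 in the Spag16 window, 2, 2 and 1 in the Magi2 window and 1, 2 and 1 in the Agbl4 window. The Ctnna3 window was 90% purine, against 36.7% in the Agbl4 window.

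Crosslinks of replicate 2 also lay closer together. The share of its intronic crosslinked nucleotides with another within 30 nt was 38.4%, 41.0%, 41.0% and 38.0% in Ctnna3, Spag16, Magi2 and Agbl4. In replicate 1 it was 12.7%, 13.3%, 9.86% and 6.46%, and in replicate 3 it was 13.8%, 10.6%, 14.2% and 7.04%. Replicate 2 also had more such nucleotides, from 1646 to 1894 per gene against 578 to 873 in the other libraries, and the part of depth in this gap was not tested.

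The next question was whether crosslinks were spread evenly along each gene, a measure that the choice of the genes did not use. The intronic bases of each gene were divided in 2 equal parts, and the crosslinks of the 5′ and the 3′ part were compared by a two-sided exact binomial test in each library, with Benjamini-Hochberg adjustment over 1450 genes and 3 libraries. Calls needed an adjusted p under 0.05 and 1 direction in every library. All 4 genes were called with more crosslinks in the 5′ part, against 7.72% of the 1450 genes, and 9.10% were called the other way. The 4 genes were chosen for high counts, and calls are easier to reach at high counts. No other tested gene held as many intronic crosslinks as the lowest of the 4, at 2994 over the 3 libraries. Of the 50 other genes with the most, each with at least 536, 12 were called higher in the 5′ part and 11 in the 3′ part.

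Magi2 had the steepest gradient. Its 5′ part held 510, 1703 and 570 crosslinks and its 3′ part 71, 163 and 64, so 87.8%, 91.3% and 89.9% lay in the 5′ part. The log2 ratio of densities was 3.12 ± 0.27 (SD, n = 3; largest adjusted p of the exact binomial test 3.13e-80), which was the 10th highest of all genes tested. In Ctnna3 the 5′ part held 726, 1537 and 682 crosslinks against 153, 397 and 155, a log2 ratio of 2.11 ± 0.15 (SD, n = 3; exact binomial, largest adjusted p 5.97e-77). In Agbl4 it held 481, 1232 and 490 against 172, 439 and 180, a log2 ratio of 1.47 ± 0.02 (SD, n = 3; exact binomial, largest adjusted p 5.87e-32). Spag16 had the weakest, with 433, 1098 and 494 against 202, 605 and 205, a log2 ratio of 1.07 ± 0.20 (SD, n = 3; exact binomial, largest adjusted p 1.11e-18). Even there every library had more crosslinks in the 5′ part, 68.2%, 64.5% and 70.7% of its intronic total. Shorter annotated transcripts of these genes stop within the 5′ part. Examples end 156 kb from the 5′ end in Ctnna3, 440 kb in Spag16, 552 kb in Magi2 and 558 kb in Agbl4. Other transcripts start further in, for example at 681 kb in Magi2. Their intronic RNA cannot be told apart from that of full-length transcripts, and their part in the gradient was not tested.

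The exact test treats each crosslink as independent, although crosslinks were clustered. A quasi-Poisson slope over 10 kb bins allows for extra spread between bins, but still treats neighbouring bins as independent. It kept the call for Magi2, Ctnna3 and Agbl4 (quasi-Poisson fit, largest adjusted p 9.05e-16, 0.0132 and 3.82e-06). It ended the call for Spag16, with adjusted p of 0.0619, 0.465 and 0.0335 in replicates 1, 2 and 3. With this fit 1.63% of 1288 genes were called higher at the 5′ end and 2.25% at the 3′ end.

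Other long genes went either way. Of 104 other tested genes that span at least 500 kb, 18 were called higher in the 5′ part and 22 in the 3′ part, and their median log2 ratio was 0.17. Among the genes closest in level, Macrod2 (log2 ratio 2.46 ± 0.25), Immp2l (1.66 ± 0.24) and Fgf14 (1.91 ± 0.21) were called with a 5′ gradient, and Cfap299 (0.16 ± 0.45) was not (SD, n = 3; exact binomial, largest adjusted p 0.568).

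**Figure D2:**
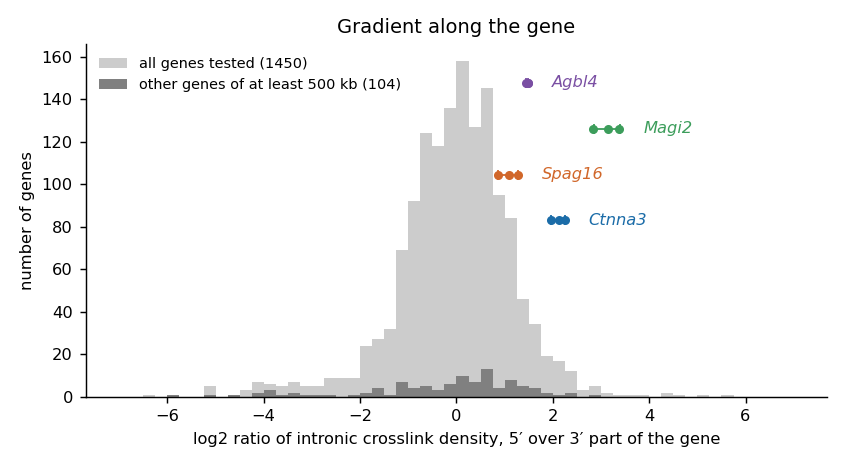
Log2 ratio of intronic crosslink density in the 5′ over the 3′ part of a gene (horizontal axis) and number of genes (vertical axis), for all 1450 genes tested (light) and for 104 other genes of at least 500 kb (dark), with 1 point per library and an SD bar for each of the 4 genes. All 12 points of the 4 genes lie above 0, with means from 1.07 in Spag16 to 3.12 in Magi2.

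Genes related to the 4 in family or function were followed in the same way. The list held 20 genes, and 12 had enough intronic crosslinks to be tested. None was called with a 5′ gradient, and none had an unadjusted p under 0.05 in that direction in all 3 libraries. Their median log2 ratio was 0.40. All held fewer intronic crosslinks than the 4 genes, such as 62, 67 and 53 in Magi1 and 73, 163 and 100 in Ctnna2. Calls are harder to reach at low counts, and the part of depth in this difference was not tested. Agbl1 and Agtpbp1, carboxypeptidases of the same family as Agbl4, were called higher in the 3′ part (log2 ratio -4.12 ± 0.55 and -1.56 ± 0.32; SD, n = 3; exact binomial, largest adjusted p 2.56e-17 and 0.0147). The other 10 were not called, among them the α-catenin Ctnna2 (0.20 ± 0.08), the scaffold Magi1 (1.38 ± 0.84) and the central apparatus genes Spag17 (0.35 ± 0.31) and Hydin (0.20 ± 0.15). By span the longest relatives were Ctnna2 at 1098 kb, Agbl1 at 895 kb and Magi1 at 608 kb, and the rest of the list was shorter.

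The gradient could be read intron by intron. Each of 64 introns of at least 1 kb in the 4 genes was compared with the other introns of its gene. In total 5 introns were called higher, against 1.34% of the 18651 introns tested in all genes, and 25 were called lower, against 0.670%. Every other tested gene held fewer intronic crosslinks than the 4, and calls are harder to reach at low counts. These shares are therefore not matched for depth. An intron called higher is also part of the reference for every other intron of its gene. The higher and the lower calls are thus not separate results. The longest intron of each gene was among those called higher. In Ctnna3, introns 2, 3 and 5, which precede intron 7, were called lower. So was intron 10 of Spag16, which precedes intron 11. Density therefore did not fall steadily from the 5′ end in Ctnna3 and Spag16. Intron 7 of Ctnna3 held 596, 1248 and 561 crosslinks, which is 69.2%, 65.3% and 67.9% of all intronic crosslinks in 25.8% of the intronic length (log2 ratio to the other introns 2.58 ± 0.13; SD, n = 3). Intron 1 of Magi2 held 346, 1306 and 386, or 59.6%, 70.0% and 60.9% in 30.6% of the length (1.98 ± 0.36). Intron 11 of Spag16 held 364, 916 and 410, or 57.3%, 53.8% and 58.7% in 29.96% of the length (1.61 ± 0.15). In Agbl4, intron 3 held 329, 850 and 345, or 50.4%, 50.9% and 51.5% in 29.96% of the length (1.28 ± 0.03), and intron 1 held 70, 195 and 71, or 10.7%, 11.7% and 10.6% in 6.47% of the length (0.84 ± 0.08). In all 5 introns every library exceeded the share of the length. The largest adjusted p of the exact binomial test over these 5 was 0.00187, in intron 1 of Agbl4, and the lower introns had log2 ratios from -3.86 to -0.54.

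Longer introns were denser within each gene. Introns of at least 50 kb held 2.71, 3.79, 2.38 and 2.63 crosslinks per kb over the 3 libraries in Ctnna3, Spag16, Magi2 and Agbl4, against 0.545, 1.31, 0.237 and 0.436 in shorter introns. Spearman's rho between intron length and density was 0.787 over 17 introns of Ctnna3, 0.662 over 16 of Spag16, 0.605 over 20 of Magi2 and 0.764 over 11 of Agbl4. These introns share libraries and transcripts, so rho is a description. Over 257 genes with at least 10 introns and 200 intronic crosslinks, the median rho was 0.209 and the quartiles were 0.00606 and 0.421. The longest intron was also the densest in Ctnna3, Spag16 and Magi2 and ranked second in Agbl4, whereas it was the densest in 28 of the 257 genes (10.9%).

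**Figure D3:**
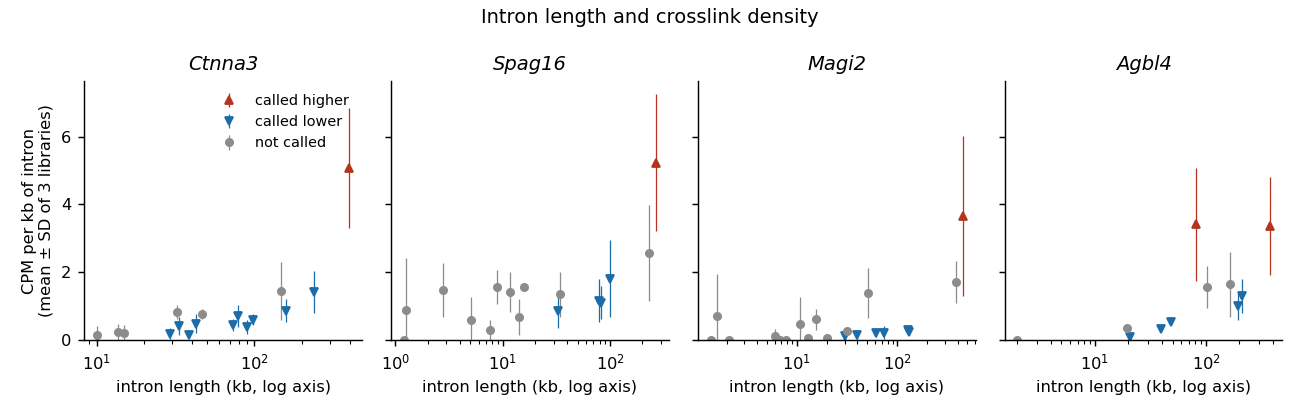
Length of each intron of at least 1 kb (horizontal log axis, kb) against its crosslink density in CPM per kb (vertical axis, mean and SD of 3 libraries), with introns called higher or lower than the rest of their gene marked. The 5 introns called higher are the longest intron of each gene and intron 1 of Agbl4.

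An excess at the 5′ side was also seen inside single introns. Of the introns with at least 50 kb of countable bases, 20 had at least 10 crosslinks in each library, and in all 20 the mean log2 ratio of the 5′ over the 3′ part was above 0, from 0.16 to 2.43. In this test 10 of the 20 were called higher in the 5′ part, against 12.9% of 556 such introns in all genes. None was called the other way, by adjusted p or by an unadjusted p under 0.05 in all 3 libraries, against 2.88%. Depth matters for this count, and among introns with at least 298.5 crosslinks, the median of the 20, 7 of 10 in the 4 genes were called against 20 of 40 in other genes.

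Intron 7 of Ctnna3 held 455, 888 and 438 crosslinks in its 5′ part and 141, 360 and 123 in its 3′ part, a log2 ratio of 1.61 ± 0.27 (SD, n = 3; exact binomial, largest adjusted p 4.87e-37). Intron 1 of Magi2 held 264, 1032 and 296 against 82, 274 and 90 (1.77 ± 0.13; exact binomial, largest adjusted p 1.52e-21), and intron 2, the next in line, held 131, 347 and 144 against 44, 79 and 52 (1.72 ± 0.36; exact binomial, largest adjusted p 7.05e-10). The other 10 of the 20 were not called, among them the longest intron of Agbl4. It held 200, 438 and 223 crosslinks against 129, 412 and 122, and replicate 2 was nearly even (0.53 ± 0.40; exact binomial, largest adjusted p 0.537). Intron 6 of Agbl4, by contrast, held 52, 93 and 40 against 9, 25 and 7 (2.26 ± 0.33; exact binomial, largest adjusted p 8.26e-06).

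When these long introns were divided in 5 stretches of equal length, the share of crosslinks over 25 introns of the 4 genes together fell at each step. It was 33.0% ± 2.58 in the first stretch, 26.9% ± 0.528, 20.8% ± 1.58 and 13.5% ± 1.43 in the next ones, and 5.71% ± 0.487 in the last (SD, n = 3). Single genes and libraries did not all fall at each step. In Spag16 the third and the fourth stretch held 17.4% ± 1.26 and 17.8% ± 4.18 (SD, n = 3), and in replicate 2 of Agbl4 the first 3 stretches held 20.6%, 26.9% and 27.96%. In 2642 introns of other genes the first stretch held 26.4% ± 1.58 and the last 12.8% ± 0.659. The last stretch held 4.66% ± 0.633 in Ctnna3, 7.59% ± 1.77 in Spag16, 4.23% ± 0.685 in Magi2 and 6.54% ± 0.945 in Agbl4, where an even spread would give 20%. The stretches were chosen after the data were seen and carry no test.

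**Figure D4:**
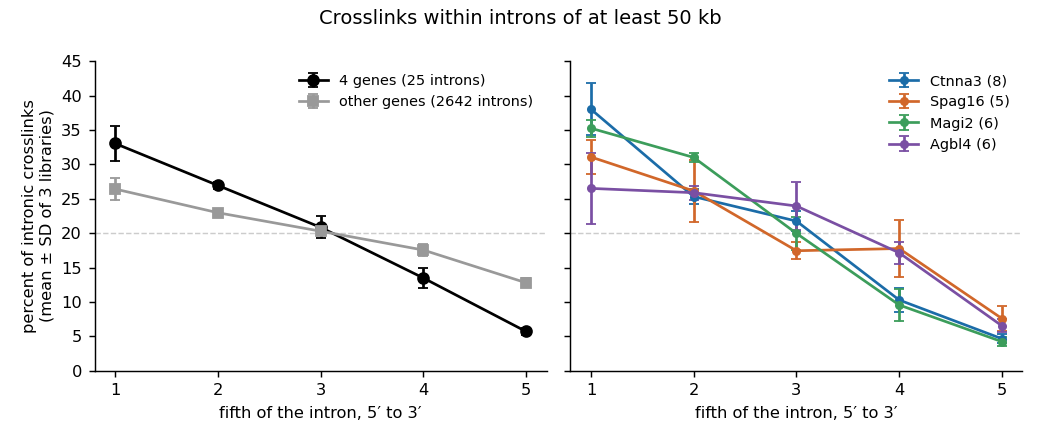
Percent of intronic crosslinks (vertical axis, mean and SD of 3 libraries) in 5 equal stretches of introns with at least 50 kb of countable bases, 5′ to 3′ (horizontal axis), for the 4 genes and all other genes (left) and for each gene (right), with a dashed line at the even share of 20%. The 4 genes go from 33.0% to 5.71% and the other genes from 26.4% to 12.8%.

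Counts on both sides of exons were then compared. Where 2 introns of at least 50 kb met, the last 25 kb before the exon was set against the first 25 kb after it, as a description added after the data were seen. At exon 3 of Agbl4 the counts were 6, 4 and 3 before and 25, 56 and 33 after. At exon 2 of Magi2 they were 0, 8 and 1 before and 10, 40 and 14 after. At exon 13 of Ctnna3 they were 0, 7 and 2 before and 8, 29 and 14 after, and at exon 11 of Spag16 they were 12, 75 and 11 before and 48, 116 and 52 after. The count was higher after the exon in every library at 11 of 14 such exons, against 32.5% of 240 in all genes tested, many of which held fewer crosslinks. The others were exon 10 of Ctnna3, with 1, 17 and 6 before and 8, 17 and 6 after, exon 12 of Ctnna3, with 1, 4 and 7 before and 3, 12 and 2 after, and exon 10 of Magi2, with 1, 5 and 0 before and 1, 5 and 1 after. Counts at several of these exons were too low to read 1 library alone.

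**Figure D5:**
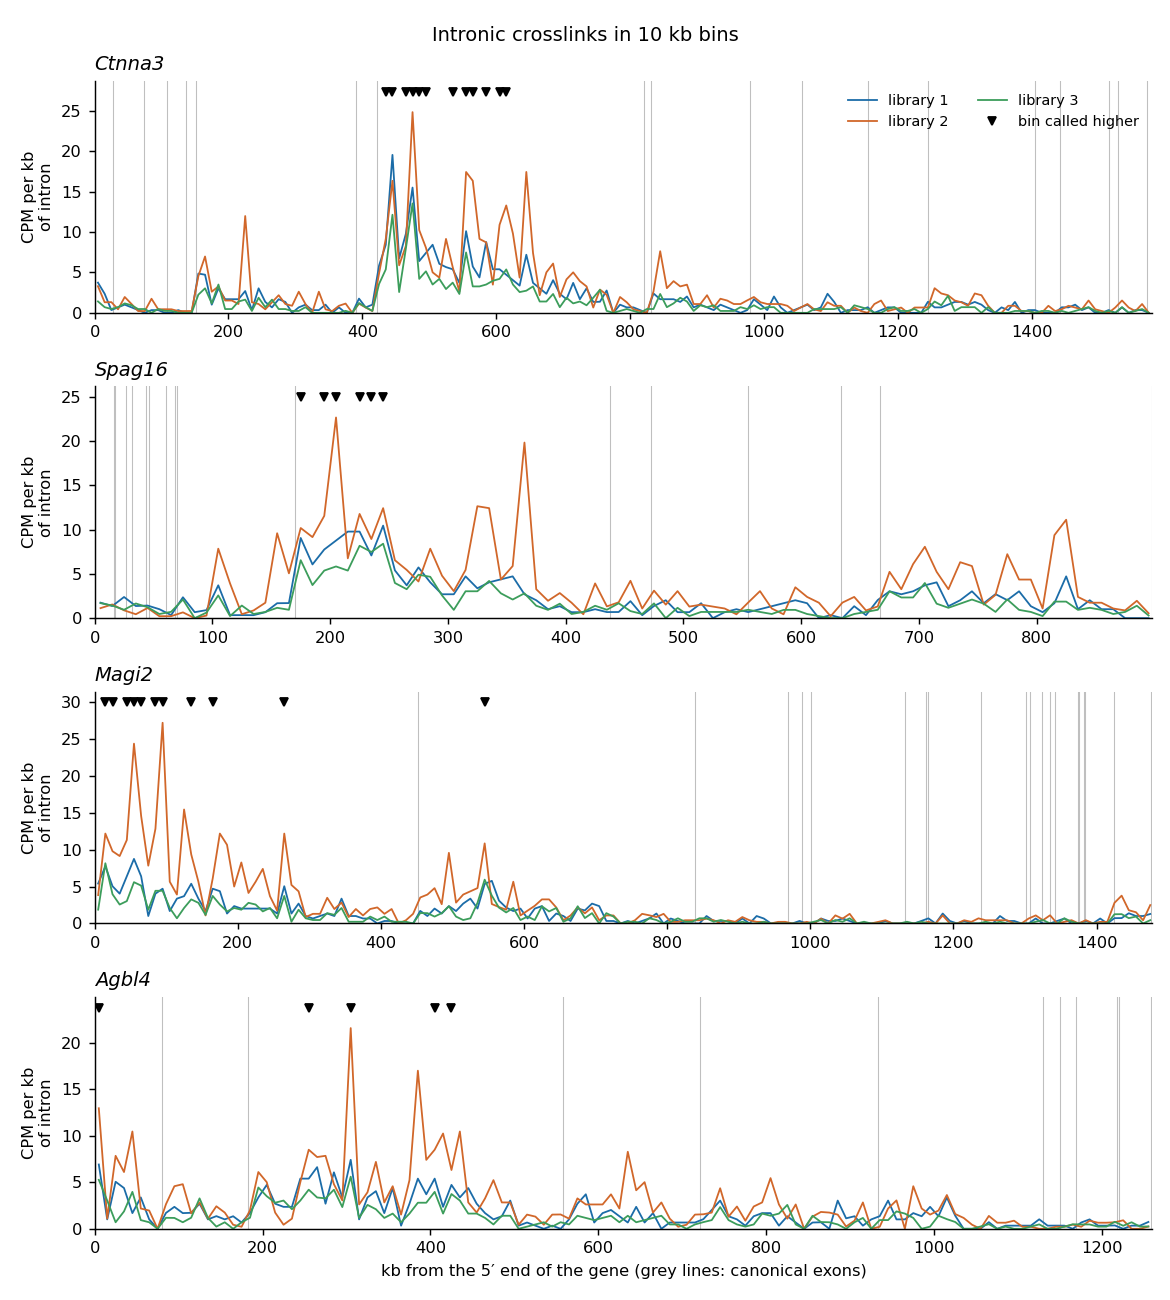
Intronic crosslink density in bins of 10 kb (vertical axis, CPM per kb of intron) along each gene from its 5′ end (horizontal axis, kb), 1 line per library, with canonical exons as grey lines and bins called higher than the rest of the gene as triangles. Called bins end by 39.2% of the length in Ctnna3 and earlier in the other genes, and library 2 has the tallest peaks.

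Bins of 10 kb showed where the crosslinks were concentrated. Of 522 bins in the 4 genes, 34 were called higher than the rest of the introns of their gene, against 0.858% of 24254 bins in all genes. None was called lower, against 0.0495%, although 48 bins of the 4 genes were lower at an unadjusted p under 0.05 in all 3 libraries. The bins of other genes lie in genes with fewer intronic crosslinks, where calls are harder to reach. The shares over all genes are therefore not matched for depth. All 12 called bins of Ctnna3 were in intron 7, all 6 of Spag16 in intron 11, 10 of 11 of Magi2 in intron 1 and 4 of 5 of Agbl4 in intron 3. The densest 10% of bins held 45.3%, 31.5%, 45.3% and 33.0% of the intronic crosslinks of Ctnna3, Spag16, Magi2 and Agbl4. Over 16 genes with at least 50 bins and 500 crosslinks, the 4 among them, the median was 33.8% and the range 25.5% to 75.5%. Ctnna3 and Magi2 ranked 4 and 5 of the 16, and Agbl4 and Spag16 ranked 10 and 11.

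In Ctnna3 the highest bin began 470 kb from the 5′ end, with 46, 114 and 58 crosslinks, and the next at 440 kb, with 58, 75 and 52. Both lie in the 5′ part of intron 7. In Spag16 the highest began at 200 kb with 26, 104 and 25, and the next at 240 kb with 31, 57 and 36. In Magi2 the highest began at 50 kb with 26, 112 and 24, and the next at 90 kb with 14, 125 and 19. In Agbl4 the highest began at 300 kb with 22, 99 and 24. Replicate 2 dominated some of these and not others, as the bin at 440 kb of Ctnna3 was nearly even between libraries while the bin at 90 kb of Magi2 was mostly replicate 2. Across bins the libraries followed each other, with Spearman's rho between 0.719 (Agbl4, replicates 1 and 2, 126 bins) and 0.846 (Magi2, replicates 2 and 3, 148 bins), which is a description since bins share a gene.

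Some bins hold other annotated genes on the same strand, whose RNA cannot be told apart from the introns around them. The called bin that begins at 540 kb of Magi2 (15, 47 and 24 crosslinks) lies at the start of the lncRNA Gm74203, whose 36.2 kb span held 47, 79 and 57 crosslinks, or 5.83% of those of Magi2. The protein-coding gene Bend5 lies inside Agbl4, and its span held 5, 19 and 7, or 1.02%. No other called bin overlapped such a gene.

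Crosslinks were sparser before the start of the genes than in their first 100 kb, and sparser on the antisense strand than on the sense strand. Within 100 kb before the start, in bases free of other genes on the strand, Ctnna3 had 4, 9 and 4 crosslinks, Spag16 none in 14.3 kb, Magi2 0, 3 and 0, and Agbl4 14, 42 and 14. Over 98.1 kb this gave Agbl4 0.143, 0.428 and 0.143 crosslinks per kb, below its first 100 kb inside the gene, which held 0.813, 2.28 and 0.803. Within 100 kb past the end, Ctnna3 had 1, 3 and 1 crosslinks against 7, 29 and 11 in its last 100 kb. Magi2 had 8, 15 and 10 in 97.4 kb against 19, 55 and 18, and Agbl4 had 2, 7 and 3 in 49.7 kb against 12, 20 and 17. For Spag16 only 0.533 kb past the end was free of other genes, with no crosslink. Where no gene is annotated on the other strand, the antisense strand held 7, 47 and 9 crosslinks in Ctnna3 against 613, 1278 and 608 sense, and 2, 16 and 3 in Spag16 against 617, 1545 and 701. Magi2 had 15, 60 and 13 antisense against 581, 1858 and 640 sense, and Agbl4 had 12, 34 and 16 against 640, 1593 and 664. The log2 ratio of sense over antisense was 5.70 ± 0.84, 7.38 ± 0.74, 5.25 ± 0.31 and 5.51 ± 0.17 in these genes (SD, n = 3), where the median of 1419 genes was 5.18 and that of 104 other genes of at least 500 kb was 3.18. The sense count is the level by which the 4 genes were chosen. A ratio above that of other long genes is therefore a description and lends no support.

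Tra2β prefers GAA-rich RNA, so the sequence around the intronic crosslinks was examined last. The motif searched was GAAGA or either of its shifted forms, written AGAAG or, shifted once more, AAGAA, on the RNA strand. These forms overlap each other. A motif counted with its centre within 30 nt of a crosslinked nucleotide, with positions thinned to 1 per 100 nt. Of all intronic positions, 22.5% in Ctnna3, 23.2% in Spag16, 22.8% in Magi2 and 23.4% in Agbl4 had it. At crosslinks the share was 27.9%, 35.9% and 26.9% in Ctnna3, 29.4%, 37.8% and 28.5% in Spag16, 26.3%, 39.03% and 28.9% in Magi2, and 27.8%, 38.0% and 29.3% in Agbl4. It was above the gene's own share in all 12 cases, and highest in replicate 2 in each gene.

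The ratio to the gene was 1.34 ± 0.22 in Ctnna3, 1.38 ± 0.22 in Spag16, 1.38 ± 0.30 in Magi2 and 1.35 ± 0.24 in Agbl4 (SD, n = 3). Ctnna3, Spag16 and Agbl4 were called, against 1.65% of 363 genes tested (exact binomial, largest adjusted p 0.0164, 0.00642 and 0.0368). Magi2 was not, at an adjusted p of 0.120 in replicate 1 (exact binomial). Every other gene tested held fewer intronic crosslinks than the 4, and calls are harder to reach at low counts. The share of 1.65% is therefore not matched for depth. Taken by library, 36, 311 and 56 of the 363 genes had an adjusted p under 0.05 in replicates 1, 2 and 3 (exact binomial). The size of the ratio was ordinary, since the median over the 363 genes was 1.23, 1.75 and 1.26 in replicates 1, 2 and 3. The calls depended on replicate 2: without it no gene was called, although 3 of the 4 and 23 of the 363 genes had an unadjusted p under 0.05 in both libraries left. The unadjusted p-values of replicates 1 and 3 are the same with or without replicate 2. The calls were lost through the adjustment, which is over all libraries together and is stricter without the many genes that passed in replicate 2. For GAA within 10 nt no gene was called either, and 1 gene, Agbl4, had an unadjusted p under 0.05 in all libraries.

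The nucleotide at the crosslink set replicate 2 apart as well. T makes up 31.1% to 31.6% of the introns of these genes. It stood at 54.4%, 57.0%, 57.8% and 54.2% of crosslinked intronic nucleotides in replicate 1 for Ctnna3, Spag16, Magi2 and Agbl4, and at 51.2%, 57.4%, 53.6% and 55.1% in replicate 3, but at 34.2%, 34.0%, 38.2% and 38.0% in replicate 2. G was 23.4% to 27.0% in replicate 2, and 14.2% to 20.3% in the other libraries. The 5′ share of intronic crosslinks was above 50% in every library of each gene. It ranged from 87.8% to 91.3% in Magi2, where replicate 2 was highest, from 79.5% to 82.6% in Ctnna3 and from 64.5% to 70.7% in Spag16, where replicate 2 was lowest in both, and from 73.1% to 73.7% in Agbl4.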

How the data were processed

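iCLIP had been done on testes of adult wild type mice, in 3 libraries of 1 group. Per the labels and methods, the authors processed reads with the iMAPS pipeline, against mm39 (GRCm39), and the submitters' processing notes name Trim Galore 0.6.7, Bowtie 1.3.1, STAR 2.7.9a and UMI-tools 1.1.2. The deposited files give, for each library alone, the count of unique cDNAs at every crosslinked nucleotide and strand, not normalised. How reads with several matches were handled is not given in the sources used here, which could add or remove crosslinks in repeats.

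Counts were assigned on the gene strand with GENCODE vM39. Exons are those of any transcript of a gene, introns are the rest without exons of other genes on the strand, and undetermined bases were left out. Introns are numbered along the canonical transcript. CPM is relative to crosslinks in genes. Genes needed at least 20 intronic crosslinks in each library, introns at least 1 kb, and bins of 10 kb at least 1 kb of intron in genes of at least 100 kb. Introns of at least 50 kb needed 10 crosslinks in each library, and the motif test needed 50 thinned positions. Densities were compared by two-sided exact binomial tests per library, with 0.5 crosslinks added in log2 ratios, and Benjamini-Hochberg adjustment over all features and libraries. A call needed an adjusted p under 0.05 in 1 direction in 3 libraries. These p-values cover counting error, and the spread between libraries is given as SD. Tests were run in Python 3.11.15 with scipy 1.17.1. They were also run on simulated crosslinks that were independent of each other, which does not cover clustering as in these libraries. Intervals are 95% Clopper-Pearson and cover counting error only. Members, relatives and cell type markers were chosen with earlier results of these data known. The named items were the 4 genes, 5 genes closest in level, 20 relatives, the 3 densest introns, bins and windows of each gene, and nucleotides shared by all libraries, of which 1 gene and some windows are not reported here. Alternatives covered each library left out, scaling, exon definition, nucleotides counted once, other splits, filters, bin and window sizes and a quasi-Poisson fit.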

Additional observations from a re-analysis of the deposited data

How the results depend on the processing

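No paired analysis was possible because the 3 libraries form 1 group. No value changed direction under the alternatives run. Of 61 values under other settings, 49 kept their call or stayed within the spread. With exons of the canonical transcript alone, exon over intron density moved to 15.7 in Spag16 and 4.03 in Agbl4, and was 1.76 against 2.40 in Magi2, and the cause was not tested. With the quasi-Poisson slope Spag16 (1.20) lost its gradient call, and 21 genes were called higher at the 5′ and 29 at the 3′ end. A filter of 50 intronic crosslinks, which tests fewer genes, left 60 and 67. The motif calls were fragile. With 15 nt on each side Ctnna3 (ratio 1.40) and Spag16 (1.47) lost theirs, and with GAA within 10 nt Ctnna3 (1.18), Spag16 (1.15) and Agbl4 (1.19) did, and the cause was not tested. When 1 library is left out of 3, a mean cannot move by as much as the SD. Levels, exon over intron densities and sense over antisense ratios could therefore not fail this check. Calls then needed 2 libraries in place of 3, which is easier to reach. With these limits, leaving out each library kept 74 of 78 calls or values. The 4 exceptions were motif ratios, which ranged from 1.22 to 1.42 in Ctnna3, 1.25 to 1.45 in Spag16, 1.21 to 1.49 in Magi2 and 1.22 to 1.44 in Agbl4. Those of Ctnna3, Spag16 and Agbl4 lost their call without replicate 2, and Magi2 gained one without replicate 1. Without replicate 2 the adjustment over all libraries was stricter. Over all 363 genes the motif test called 6, against 63, 0 and 37 without replicates 1, 2 and 3 and 18 with positions not thinned. The alternatives without repeats were not run, because the genome used does not mark them. A count of 0 in a region allows up to 3 crosslinks, so short exons and introns of these genes carry little information, and 3 libraries set the precision.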
